A study of Mus musculus with 3 samples.

Results

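The epidermal growth factor receptor (EGFR) family was followed through 10 genes of the mouse lung: the receptors Egfr, Erbb2 and Erbb3 and the ligands Areg, Ereg, Hbegf, Btc, Tgfa, Egf and Epgn. They were taken by gene symbol from the 32285 genes of each count matrix, and they are therefore 10 of 32285 genes. All 10 had at least 1 unique molecular identifier (UMI, a tag that marks 1 captured RNA molecule) in the cells of each library, where 19420 to 20316 genes in all were seen.

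The family works by pairing. Each ligand is made as a membrane-bound precursor that is cut loose by ADAM proteases, and the freed ligand joins 2 receptors into an active kinase pair, which signals through Ras and MAP kinases and through PI3 kinase. Erbb2 binds no known ligand and Erbb3 has a weak kinase, so each depends on a partner, and Erbb3 is joined by neuregulins rather than by the ligands measured here. In the lung the family guides the repair of the airway and alveolar epithelium, and activating mutations of EGFR drive a common form of lung adenocarcinoma, while amphiregulin, the product of Areg, is also made by several immune cells during repair.

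The study asked how macrophages that lack the nuclear receptor PPARg bear on EGFR-mutant lung tumours. Lung cells were sorted by flow cytometry, mixed in equal parts from 4 gates and sequenced as 3' ends in droplets. EPCAM without CD45 marked the epithelial gate and CD3 the T cell gate. CD11c with SigF marked the gate of alveolar macrophages, and CD11b without Ly6G that of other macrophages. Each of 3 groups gave 1 library from 3 pooled mice of 16 to 20 weeks on chow with 625 ppm doxycycline. WT healthy mice carried Ccsp-rtTA and a TetO-driven EGFR mutant, WT tumour mice carried these and Pparg fl/fl, and PPARg-/- tumour mice carried these, Pparg fl/fl and Csf1rCre.

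All 3 groups thus shared the mutant EGFR transgene and the chow that switches it on, and the labels call WT healthy mice healthy littermates without saying how they stayed free of tumours. The Ccsp promoter drives rtTA in club cells of the airway, and Csf1rCre deletes Pparg in monocytes and macrophages as a lineage and not in alveolar macrophages alone. Counts were made against the mouse genome, and Egfr reads of the animal's own gene and of the transgene cannot be told apart in these files.

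After filters and removal of doublets 2894 cells of WT healthy, 4268 of WT tumour and 4995 of PPARg-/- tumour remained, with a median of 5563, 4773.5 and 3457 UMIs. Here and below, 3 values without a name follow this order of the libraries. With 1 library per group no test was possible: levels are UMIs summed over a cell class per 1000000 UMIs of that class (CPM), ranges in brackets are exact 95% Poisson intervals, and all intervals cover counting error only, not the spread between mice. A member was called higher or lower in a class at a ratio of at least 1.5-fold with an interval that excluded 1, where both libraries had at least 50 cells of the class and the member had at least 20 UMIs over both. Where a member had no UMI in a class, the level allowed is that of a floor of 3 UMIs. That floor lies below the exact 95% upper limit. The WT healthy library stood apart in 2 ways. Its cells held 1233 CPM of Xist against 0.177 and 0.305 in the tumour libraries, so that sex and tumour state cannot be told apart, although the labels say that both sexes were used. Of its 2894 cell barcodes 1869 also held at least 10 UMIs in WT tumour (median 22), against 63 to 99 cell barcodes for other pairs of libraries. Cell barcodes that were cells in both libraries of a pair numbered 3, 5 and 6. Pparg RNA, the target of the knockout, was at 126 CPM in cells of WT healthy, 94.5 CPM in WT tumour and, for PPARg-/- tumour, 235.7 CPM. These are 3' ends, and the labels do not say which exons Cre removes, so the level checks neither the deletion nor the label, and the group is called PPARg-/- tumour only as labelled.

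Epithelial cells fell into 4 classes by markers that hold no member: alveolar type 2 (AT2, the surfactant-making cells) with 41, 186 and 175 cells, alveolar type 1 (AT1, the thin gas-exchange cells) with 7, 84 and 31, a class with markers of ciliated and club cells with 10, 35 and 15, and a class with markers of both AT1 and club or secretory cells with 0, 76 and 16. The last class was led by Scgb1a1, Clu, Cldn18 and Krt8 and kept the descriptive name mixed AT1/club. Macrophages of the 3 libraries formed clusters of their own, and the largest of each library, with 840, 973 and 1158 cells, is called the main macrophage cluster. In PPARg-/- tumour its leading markers were those of interstitial macrophages, with 19562 CPM of the 12 interstitial markers against 1319 in the WT tumour cluster, and alveolar markers were at 12625 against 20093 CPM. In the bulk of a class, fewer cells with a gene and less RNA per cell cannot be told apart. Endothelial cells (226, 246 and 386), which no gate was set for, were present in every library.

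The ligand genes Epgn, Ereg, Areg and Btc are neighbours, in that order, on chromosome 5, within 375.5 kb and with no other protein-coding gene between them in the GRCm38 annotation. Areg spans chr5:91139599-91148432 on the plus strand and Ereg spans chr5:91074622-91093646, also on the plus strand. Areg was the member with the most UMIs in the tumour libraries, and the RefSeq sequence directly upstream of its start (GRCm38.p6, chr5:91139479-91139598, plus strand) is shown because the start is flanked by 2 short motifs, printed in capitals: TGACGTCA, the cyclic AMP response element, and TATAAA, the TATA box.
Areg: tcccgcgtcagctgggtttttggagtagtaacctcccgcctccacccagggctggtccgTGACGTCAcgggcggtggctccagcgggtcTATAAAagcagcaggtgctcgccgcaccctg
The response element begins 61 bases and the TATA box 31 bases upstream of the start. Searched on both strands in windows of 250 bases before to 50 bases after a start, TGACGTCA was found in 588 of 32851 RefSeq windows (1.79%) and TATAAA in 13.6%. RefSeq windows were matched for Egfr, Erbb2, Areg, Btc, Tgfa, Egf and Epgn, and of these only the Areg window held TGACGTCA, while TATAAA was also in that of Epgn. The AP-1 motif TGANTCA, in 7.81% of all windows, was in none of these. A match of letters is a description and not a site of binding.

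Egfr is the receptor shared by all 7 ligands, and most of its UMIs captured in the tumour libraries were epithelial. Of its 33, 316 and 158 UMIs in cells 30.3%, 93.0% and 92.4% lay in epithelial cells. These shares depend on the sort, which had an epithelial gate and gave 58, 381 and 237 epithelial cells. No gate was set for fibroblasts, of which 7, 7 and 6 were captured. In AT2 cells Egfr was at 10.3 CPM (2.13 to 30.1; 3 UMIs) in WT healthy, 60.8 CPM (52.1 to 70.4) in WT tumour and, for PPARg-/- tumour, 44.4 CPM (36.7 to 53.2). The interval of WT healthy AT2 cells lay below those of both tumours, but it rests on 41 cells and no call was made. In AT1 cells Egfr was at 202 CPM on 5 UMIs of 7 cells in WT healthy against 29.3 CPM (17.1 to 47.0) in the WT tumour and 107 CPM (63.2 to 168) in the PPARg-/- tumour. Here the order of the tumours was the reverse of that in AT2 cells, with intervals that did not overlap, and only 31 PPARg-/- tumour cells stand behind it. The mixed AT1/club class held 73.5 CPM (58.4 to 91.3) of Egfr in WT tumour, and 3 UMIs in PPARg-/- tumour gave 13.8 CPM.

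Outside the epithelium Egfr was seen at a level above 20 CPM in the fibroblasts, a mesenchymal cell of which only 7, 7 and 6 were captured: 104 CPM on 8 UMIs, 51.7 CPM on 4 and 88.8 CPM on 3. Conventional dendritic cells had 1, 11 and 4 Egfr UMIs. Main macrophages had 3, 1 and 5 Egfr UMIs in 840, 973 and 1158 cells, levels of at most 0.272 CPM. Those few UMIs can come from free RNA: in barcodes with 10 to 100 UMIs, which hold RNA but no cell, Egfr stood at 2.97, 7.87 and 3.72 CPM, and a class is called open to free RNA where 10% of that level reaches 50% of its own. All 3 main macrophage values were open to free RNA in this sense.

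Erbb2, the partner without a ligand, was found in the epithelium and also in endothelial cells. It was at 24.1 CPM (9.67 to 49.6) in AT2 cells of WT healthy, 37.8 CPM (31.0 to 45.5) in WT tumour and 22.9 CPM (17.6 to 29.5) in PPARg-/- tumour. Endothelial cells, the lining of the vessels, held Erbb2 at 14.6, 17.0 and 10.99 CPM with neither of the other 2 receptors beyond 3 UMIs of Egfr in WT healthy. Erbb2 in endothelial cells did not pass 1.5-fold in WT tumour over WT healthy (log2 ratio 0.21) and reached a log2 ratio of -0.63 (-1.71 to 0.43) in PPARg-/- tumour over WT tumour, an interval that includes equality.

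Erbb3, the receptor joined by neuregulins, was the receptor with the most UMIs in each library, at 56, 563 and 219. In AT2 cells it stood at 72.2 CPM (44.7 to 110.3) in WT healthy, 75.5 CPM (65.9 to 86.2) in WT tumour and, for PPARg-/- tumour, 56.4 CPM (47.8 to 66.2). These 3 intervals overlap, with PPARg-/- tumour lowest. Within WT tumour Erbb3 was highest in mixed AT1/club cells (177 CPM, 153 to 204), followed by AT1 cells (138 CPM, 109 to 172), AT2 cells and ciliated/club cells (60.9 CPM, 36.1 to 96.2). The neighbours in this order overlap at each step except from AT1 to AT2 cells. Endothelial cells had no Erbb3 UMI in any library. With 226, 246 and 386 cells this allows up to 2.75, 2.68 and 2.20 CPM by the floor of 3 UMIs.

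**Figure D1:**
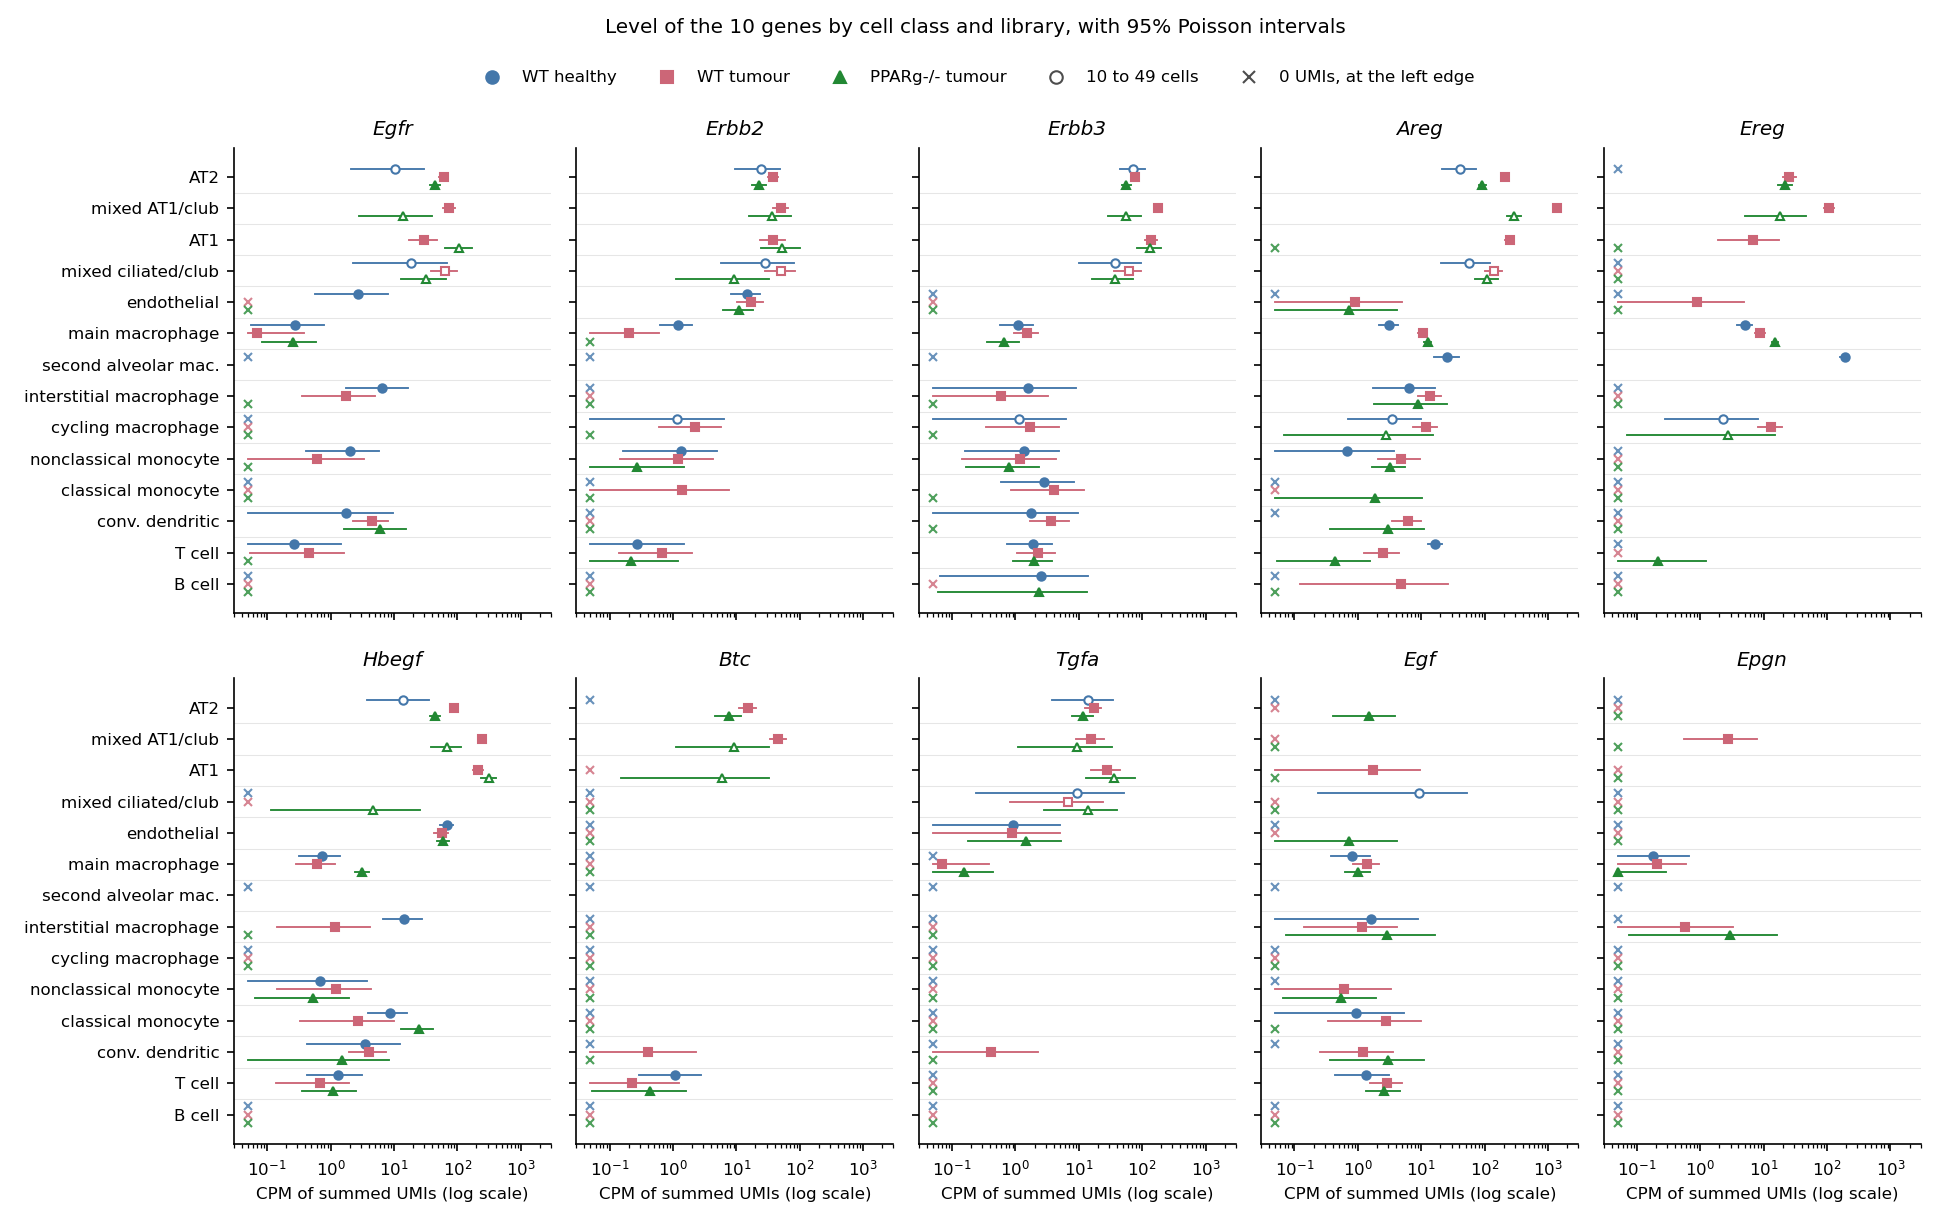
Levels of the 10 genes as CPM of summed UMIs (x axis, log scale) in 14 cell classes (y axis) of WT healthy (blue circles), WT tumour (red squares) and PPARg-/- tumour (green triangles). Bars are exact 95% Poisson intervals, open symbols mark classes of 10 to 49 cells, classes under 10 cells are left out, and crosses at the left edge mark 0 UMIs; the receptors and Areg are highest in the epithelial rows, Hbegf also in endothelial cells (56.3 to 68.6 CPM), and Ereg in the second alveolar macrophage row of WT healthy (191 CPM).

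Areg encodes amphiregulin, a low-affinity ligand of EGFR. It had 144, 2540 and 610 UMIs in cells. In AT2 cells it was at 41.2 CPM (21.3 to 72.0) in WT healthy against 208 CPM (191 to 225) in the WT tumour and 92.2 CPM (81.0 to 104) in the PPARg-/- tumour. The 3 intervals did not overlap, with WT tumour highest and WT healthy lowest.
In mixed AT1/club cells Areg reached 1369.8 CPM (1302 to 1441) in WT tumour, where 60 of 76 cells had at least 1 UMI and the cell with the most held 320 of 1510, and 290.0 CPM (223 to 371) in the 16 cells of PPARg-/- tumour. That class alone held 59.4% of the Areg UMIs of all WT tumour cells, although it made up 76 of 4268 cells. The cells of this class differed between WT tumour and PPARg-/- tumour. The 9 club or secretory markers summed to 46516 CPM in the first and 284985 CPM in the second. The 11 AT1 markers summed to 11392 and 4847 CPM and the 10 AT2 markers to 16168 and 12386 CPM. In PPARg-/- tumour the AT1 sum was also 4879 CPM in endothelial cells and 3933 CPM in AT2 cells. The AT1 part of the name is thus not borne out in PPARg-/- tumour. The part of these differences in the Areg levels was not tested.

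Areg in AT1 cells of WT tumour was at 250.2 CPM, in 25 of 84 cells and with 47 of its 145 UMIs in 1 cell. The 31 AT1 cells of PPARg-/- tumour had no Areg UMI, which allows up to 17.8 CPM, and the 7 of WT healthy had none either. Ciliated/club cells held Areg at 56.1, 139 and 110 CPM on 6, 41 and 24 UMIs, with intervals that overlap. The order of Areg levels within WT tumour was thus mixed AT1/club, AT1, AT2 and ciliated/club cells, and AT1 overlapped AT2 cells, while the steps from mixed AT1/club to AT1 and from AT2 to ciliated/club cells were larger than the counting error.

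The share of AT2 cells with an Areg UMI was 60.2% in WT tumour (52.8% to 67.3%, exact binomial) and 34.9% in PPARg-/- tumour (27.8% to 42.4%). AT2 cells were of like depth in both, at a median of 14236.5 and 13196 UMIs. With each cell thinned to 1000 UMIs the shares were 14.5% (9.79% to 20.4%) and 5.71% (2.77% to 10.3%), so the order held at equal depth with intervals that overlap slightly. T cells, which serve here as a background, had an Areg UMI in 0.806% and 0.123% of cells before thinning, at medians of 3027 and 2693.5 UMIs.

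Ereg encodes epiregulin and lies next to Areg, but the UMIs of the 2 genes were spread differently over the cell classes. Ereg had 215, 350 and 362 UMIs, and macrophages held 100%, 43.7% and 82.6% of these. Epithelial cells held 56.0% and 17.1% in the tumours and no UMI in WT healthy, which over 58 cells allows up to 7.10 CPM. In AT2 cells Ereg was at 0 UMIs in WT healthy, which allows up to 10.3 CPM, at 25.4 CPM (19.9 to 31.9) in WT tumour and at 21.8 CPM (16.6 to 28.2) in PPARg-/- tumour, where 1 cell held 29 of 58 UMIs. Mixed AT1/club cells of WT tumour held 107 CPM (88.6 to 128), with 40 of 118 UMIs in 1 cell.
Most epithelial cells with Ereg also had Areg: 29 of 33 Ereg-positive AT2 cells and all 27 Ereg-positive mixed AT1/club cells of WT tumour also had an Areg UMI, as did 18 of 24 AT2 cells of PPARg-/- tumour and 1 of 2 AT1 cells of WT tumour. Among all AT2 cells an Areg UMI was present in 112 of 186 and 61 of 175.

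Hbegf encodes heparin-binding EGF-like growth factor, which also binds ERBB4. In AT2 cells it was at 13.7 CPM (3.75 to 35.2) in WT healthy, 89.3 CPM (78.7 to 101) in WT tumour and, for PPARg-/- tumour, 45.1 CPM (37.4 to 54.0). In AT1 cells Hbegf was at 526 CPM (280 to 899) on 13 UMIs of 7 cells in WT healthy against 214 CPM (178 to 255) in the WT tumour and 314 CPM (235 to 411) in the PPARg-/- tumour. The tumour intervals overlap, and that of WT healthy lies above the one of WT tumour. Mixed AT1/club cells of WT tumour, at 241 CPM (213 to 272), did not differ from AT1 cells beyond counting error.
Endothelial cells also held Hbegf, at 68.6 CPM (54.0 to 86.03), 56.3 CPM (43.3 to 72.0) and 59.4 CPM (47.1 to 73.8), intervals that overlap throughout. They held 58.1% of the Hbegf UMIs of WT healthy, 8.49% of those of WT tumour and 22.8% of those of PPARg-/- tumour, shares that also follow the number of epithelial cells captured (58, 381 and 237). Ciliated/club cells had 0, 0 and 1 Hbegf UMI.

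Btc encodes betacellulin and was an epithelial transcript in the tumours, with 94 of 96 UMIs of WT tumour and 23 of 25 UMIs of PPARg-/- tumour in epithelial cells. In WT healthy it had 4 UMIs, all in T cells. AT2 cells held Btc at 15.1 CPM (10.98 to 20.3) in WT tumour and 7.52 CPM (4.60 to 11.6) in PPARg-/- tumour, and mixed AT1/club cells of WT tumour at 45.4 CPM (33.7 to 59.8). AT1 cells of WT tumour had none, which over 84 cells allows up to 5.18 CPM, a class in which Hbegf was at 214 CPM.
Tgfa, the gene of transforming growth factor alpha, was in AT2 cells at 13.7 CPM on 4 UMIs, 17.2 CPM (12.7 to 22.6) and 11.7 CPM (7.92 to 16.6). Its intervals overlap throughout, and that of WT healthy is the widest. Its 11, 88 and 47 UMIs were epithelial by 81.8%, 96.6% and 89.4%.
Egf, the founding ligand, was hardly found in the epithelium: of 17, 42 and 42 UMIs 58.8%, 52.4% and 50% lay in macrophages and 29.4%, 31.0% and 28.6% in T cells, at levels of at most 3.03 CPM in any immune class of 50 cells or more. Epgn, the gene of epigen, had 2, 7 and 2 UMIs and is not described further.

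**Figure D2:**
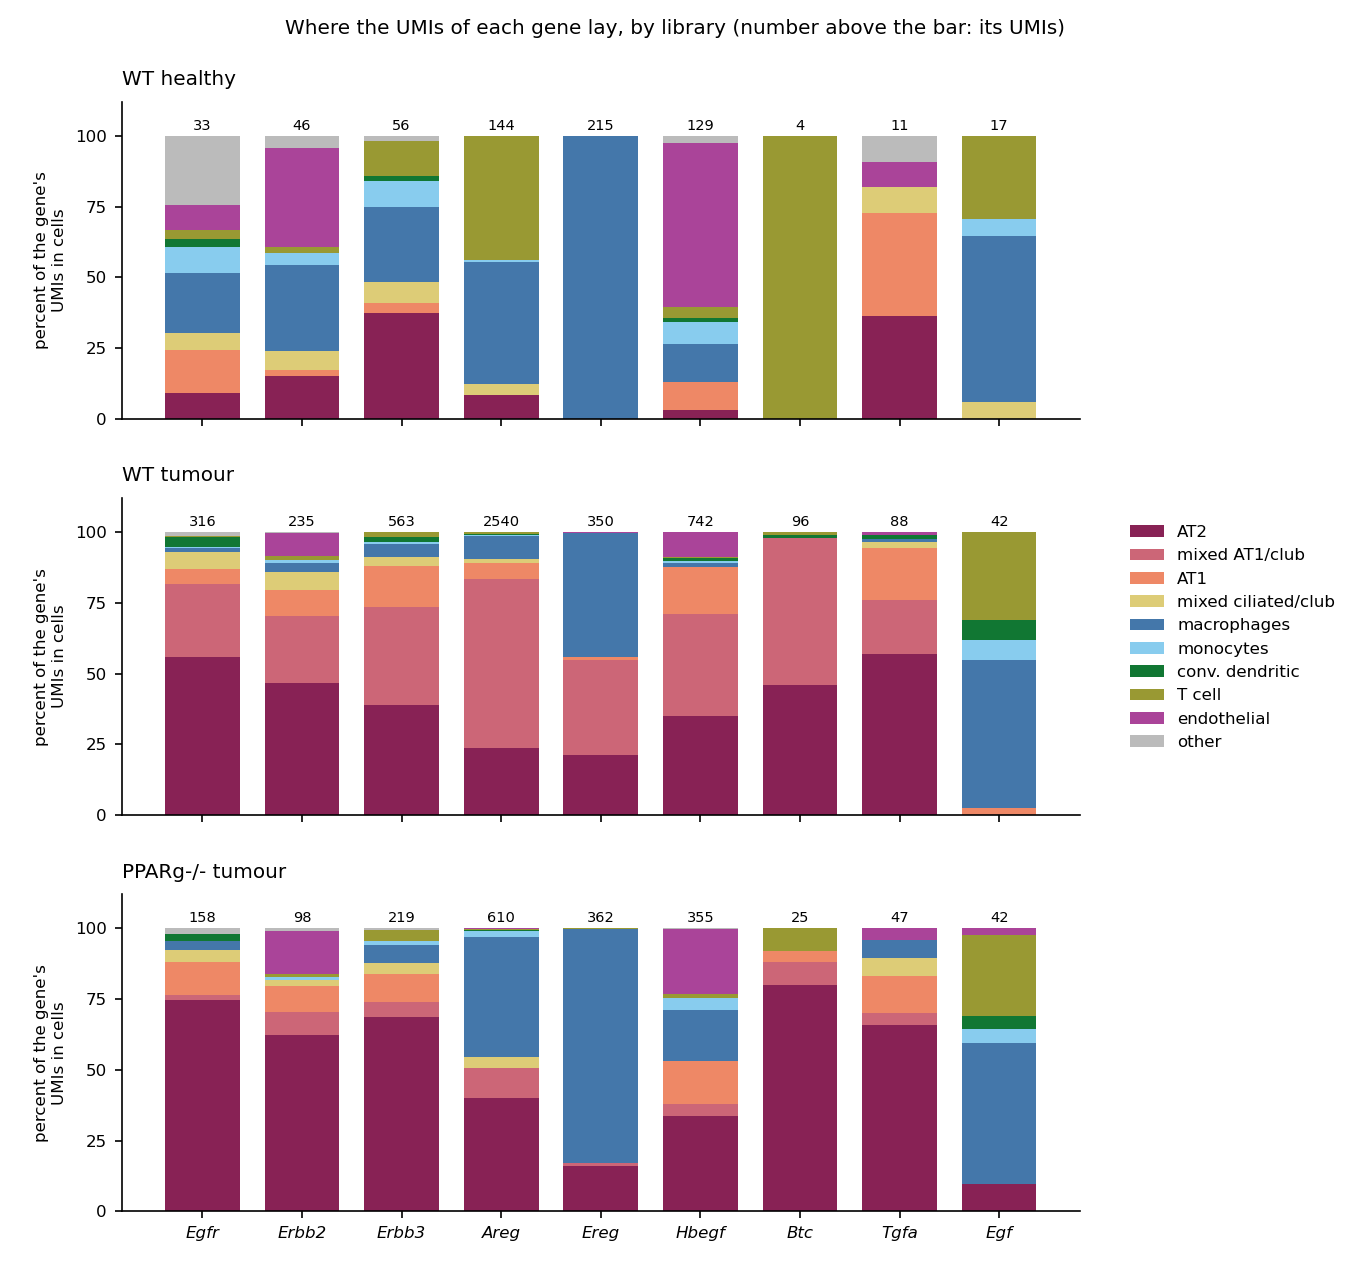
Share of each gene's UMIs (y axis, percent) by cell class in each of the 3 libraries, with the number of UMIs above each bar; Epgn, with 2, 7 and 2 UMIs, is left out. Epithelial classes hold 12.5% of Areg UMIs in WT healthy, 90.6% in WT tumour and, for PPARg-/- tumour, 54.4%; the shares depend on how many cells of each class were captured.

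Ligand and receptor RNA were found together in the same epithelial cells. Of 186 AT2 cells of WT tumour 145 had a UMI of any of the 7 ligands, 158 had a UMI of any of the 3 receptors and 131 had both. In PPARg-/- tumour 110 of 175 AT2 cells had a ligand, 131 a receptor and 89 both. Areg and Egfr were seen together in 71 of 186 and 25 of 175 AT2 cells, where 112 and 61 had Areg and 97 and 62 had Egfr. In main macrophages ligand-positive cells (67, 172 and 196) far outnumbered receptor-positive cells (24, 25 and 18). Both were seen in 4, 5 and 1 cells. The number of cells with both depends on the share with each, and whether it exceeds that was not tested. A cell without a UMI may still hold the RNA at this depth.

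**Figure D3:**
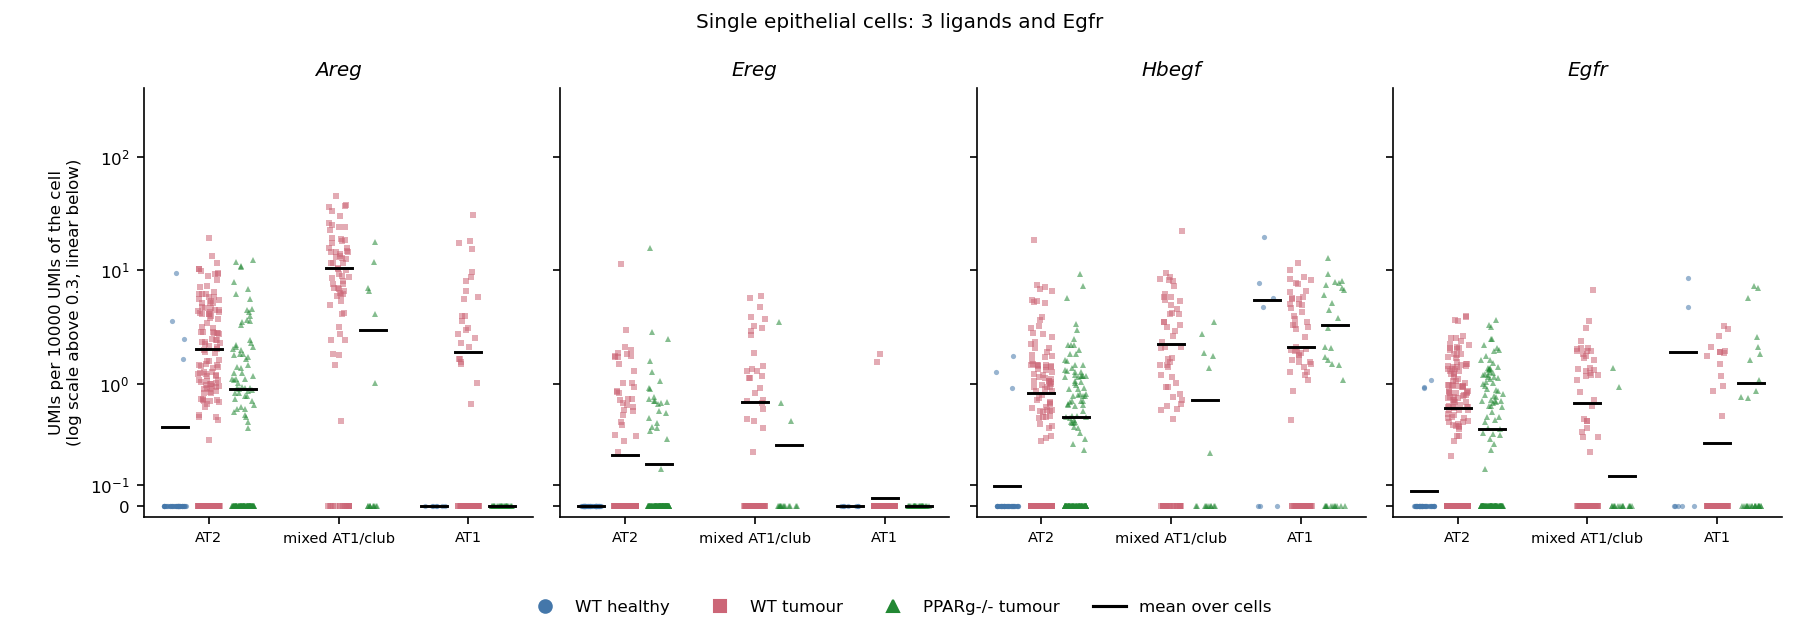
UMIs of Areg, Ereg, Hbegf and Egfr per 10000 UMIs of the cell (y axis, log scale above 0.3 and linear below) in single AT2, mixed AT1/club and AT1 cells; each point is 1 cell and black bars are means over cells. Areg lies highest in the 76 mixed AT1/club cells of WT tumour and is at 0 in all 31 AT1 cells of PPARg-/- tumour, while Hbegf is present in AT1 cells of all 3 libraries.

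The comparison of WT tumour with WT healthy asks what differs in the lung that bears the tumour. Only 58 epithelial cells were captured in WT healthy, so all epithelial cells were pooled for it, a choice made after the data were seen, and the makeup of the pool differed. Mixed AT1/club cells were 0 of 58 epithelial cells in WT healthy, which allows a share of up to 5.17% by a floor of 3 counts (6.16% as the exact binomial bound), and 19.9% (16.1% to 24.3%, exact binomial) in WT tumour, while AT2 cells were 70.7% and 48.8%. Of all 11188 genes counted in the pool 7.47% were higher and 13.1% lower by the same rule, and 6 members were higher and none lower.

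Areg went from 42.6 CPM in WT healthy to 471 CPM in WT tumour, an 11.1-fold difference (log2 ratio 3.47, 2.80 to 4.22). Hbegf went from 40.2 to 133 CPM (log2 ratio 1.72, 1.03 to 2.51) and Egfr from 23.7 to 60.1 CPM (1.35, 0.45 to 2.42). Erbb3 was at 63.9 and 105 CPM (0.72, 0.16 to 1.33). Areg lies above the others, and the intervals of Hbegf, Egfr and Erbb3 overlap each other. With each cell weighted alike Hbegf was at 0.87 and Egfr at 0.80 (-0.10 to 1.88), which ended the Egfr call. With each library clustered alone they were at 3.73 and 2.26, and Egfr was at 2.01 without the top cell of each library. Ereg and Btc, with no UMI in WT healthy, were at 40.1 and 19.2 CPM in WT tumour. With a floor of 3 counts over the class in place of 0, they were 5.65-fold and 2.71-fold higher. The lower limits of their log2 ratios were 2.19 and 1.11. Erbb2 (26.0 and 41.3 CPM; log2 ratio 0.67, -0.20 to 1.69) and Tgfa (21.3 and 17.4 CPM; -0.29, -1.28 to 0.88) passed the rule in neither direction.
Within the classes of the pool the members did not all follow this order. AT2 cells gave the levels of Areg, Egfr, Ereg and Hbegf stated above, higher in WT tumour, but Erbb3 there was level, at 72.2 and 75.5 CPM. In AT1 cells Hbegf and Egfr stood the other way, at 526 and 202 CPM in the 7 cells of WT healthy beside 214 and 29.3 CPM. The 10 alveolar macrophage markers summed to 931 CPM in AT2 cells of WT healthy and 157 CPM in those of WT tumour, against 21772 and 20093 CPM in main macrophages, and the part of these traces in the result was not tested.

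Over the 8 classes with at least 50 cells in both libraries there were 80 pairs of member and class, of which 8 had the 20 UMIs needed. Of these 8, 2 were higher in WT tumour, 1 was lower and 5 were neither, beside 6.11% of all genes higher and 7.87% lower over the same classes.
Main macrophages gave both of the higher values. Areg was at 3.09 CPM (2.14 to 4.31) in WT healthy and 10.6 CPM (8.97 to 12.4) in WT tumour, a 3.42-fold difference (log2 ratio 1.78, 1.23 to 2.36). Ereg was at 5.09 CPM (3.84 to 6.60) and 8.79 CPM (7.33 to 10.4), a log2 ratio of 0.79 (0.33 to 1.27). Free RNA moved with the Areg value, at 5.45 and 50.8 CPM in the 2 libraries, and with 10% of it taken off at each class the log2 ratio was 1.11 (0.47 to 1.79). The 10 AT2 markers summed to 188 and 328 CPM in the same cells.
The Ereg direction depended on which macrophages were counted. With all macrophages together Ereg was at 15.8 CPM in WT healthy and 8.42 CPM in WT tumour (log2 ratio -0.91, -1.22 to -0.61; 8.76% of genes higher and 12% lower), and a second alveolar macrophage cluster of 51 WT healthy cells, with 1 cell of WT tumour, held 156 of the 215 Ereg UMIs at 191 CPM. In that second cluster 12 cells were Ereg-positive, 1 of these held 46 UMIs, and the 19 stress genes summed to 12503 CPM against 5222 CPM in the main cluster of WT healthy; their part was not tested. In the main cluster the direction also turned with a minimum of 2000 UMIs per cell (-1.03), a mitochondrial limit of 5% (-0.31) and each library clustered alone (-0.23). Areg kept its direction with all macrophages together (4.57 and 11.2 CPM, log2 ratio 1.29) and passed the rule in 9 of 10 alternatives, the exception being each library clustered alone (0.53).
In T cells Areg was at 16.8 CPM in WT healthy and 2.47 CPM in WT tumour, lower by the rule (log2 ratio -2.76, -3.83 to -1.83; 7.49% of T cell genes higher and 4.43% lower), yet 58 of its 63 UMIs lay in 1 cell of the gamma-delta T cell cluster. Without the top cell of each library the log2 ratio was 0.76 (-0.93 to 2.65), and the lower call ended.
The 5 pairs that were neither were Hbegf (-0.29) and Erbb2 (0.21) in endothelial cells, Erbb3 (0.47) and Egf (0.75) in main macrophages and Areg (1.12, -0.42 to 3.11) in interstitial macrophages.

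**Figure D4:**
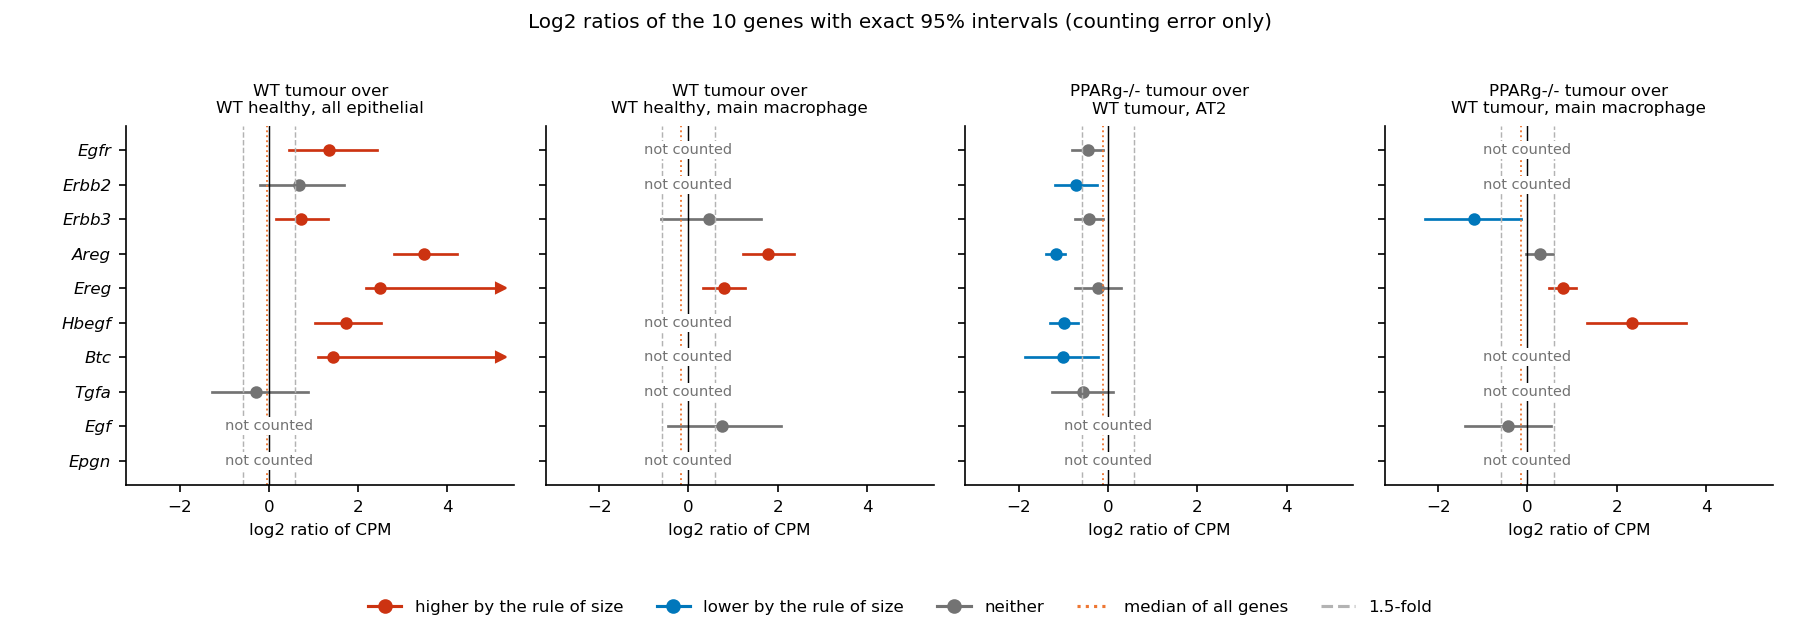
Log2 ratio of CPM (x axis) of the 10 genes in 4 comparisons, with exact 95% intervals for counting error; arrows mark ratios against 0 UMIs, dashed lines 1.5-fold and dotted lines the median of all genes, and members under 20 UMIs were not counted. In all epithelial cells of WT tumour over WT healthy 6 members are past the rule on the right, and in AT2 cells of PPARg-/- tumour over WT tumour all 8 measured members lie left of 0, 4 of them past the rule.

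The comparison of PPARg-/- tumour with WT tumour asks what differs in the tumour-bearing lung labelled as lacking Pparg in the monocyte and macrophage lineage. It shares the WT tumour library with the comparison above. Over 9 classes and 90 pairs 18 had enough UMIs: 2 were higher in PPARg-/- tumour, 5 lower and 11 neither, beside 5.22% of all genes higher and 6.63% lower.
AT2 cells held 4 of the 5 lower values, where 3.06% of 10435 genes were higher and 6.01% lower and the median gene had a log2 ratio of -0.11. Areg was 2.25-fold lower in PPARg-/- tumour (log2 ratio -1.17, -1.39 to -0.96), Btc 2.01-fold lower (-1.01, -1.85 to -0.21), Hbegf 1.98-fold lower (-0.98, -1.31 to -0.67) and Erbb2 1.65-fold lower (-0.72, -1.19 to -0.25). These calls are for AT2 cells: in AT1 cells Hbegf was at 314 CPM in PPARg-/- tumour against 214 CPM, with intervals that overlap. Egfr (-0.45, -0.80 to -0.11) and Erbb3 (-0.42, -0.73 to -0.11) had intervals below 0 but sizes under 1.5-fold. Tgfa (-0.56, -1.25 to 0.12) and Ereg (-0.22, -0.74 to 0.30) passed in neither direction, and without the AT2 cell that held the most Ereg in each library Ereg was lower (-0.98, -1.67 to -0.33).
AT2 markers summed to 175992 and 204821 CPM in AT2 cells of WT tumour and PPARg-/- tumour and AT1 markers to 4661 and 3933 CPM, and the part of this shift in the result was not tested. Free Areg RNA was also lower in PPARg-/- tumour, at 12.8 against 50.8 CPM, and with 10% of free RNA taken off the log2 ratio of Areg in AT2 cells was -1.15. Keeping only cells of at most 5% mitochondrial UMIs gave -2.22 for Areg. Erbb2 (-0.60, -1.26 to 0.02) then left the rule and Erbb3 (-1.33, -1.83 to -0.86) passed it as lower.

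With all epithelial cells pooled (3.53% of genes higher and 11% lower) Areg went from 471 to 102 CPM (log2 ratio -2.21, -2.38 to -2.04), a larger difference than within AT2 cells. Mixed AT1/club cells, the class richest in Areg, were 19.9% of epithelial cells in WT tumour and 6.75% (3.91% to 10.7%) in PPARg-/- tumour. Areg was also lower within the mixed AT1/club and AT1 cells of PPARg-/- tumour, at the levels given above. The part of the makeup in the pooled difference was not tested. Ereg (-1.08), Hbegf (-1.20), Btc (-1.45), Erbb3 (-0.83) and Erbb2 (-0.75) were lower in the pool as well, and Egfr and Tgfa (both -0.43) were neither. A mitochondrial limit of 5% ended the calls of Ereg (-0.46, -0.99 to 0.042) and Erbb2 (-0.49, -1.07 to 0.059), and Erbb2 also left the rule with TMM scaling (-0.58) and with each cell weighted alike (-0.58).

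Main macrophages, where 15% of 12079 genes were higher and 18.1% lower in PPARg-/- tumour, gave both higher values and 1 lower value. Hbegf was at 0.618 CPM (0.283 to 1.17) in WT tumour and 3.15 CPM (2.42 to 4.04) in PPARg-/- tumour, 5.10-fold higher (log2 ratio 2.35, 1.33 to 3.55), and in WT healthy at 0.726 CPM. Ereg was at 8.79 and 15.2 CPM (13.5 to 17.0), a log2 ratio of 0.79 (0.48 to 1.10), with 54 of 298 UMIs in 1 cell. Areg, at 10.6 and 12.8 CPM (log2 ratio 0.27, -0.02 to 0.57), was neither.
Hbegf was therefore higher in macrophages and lower in AT2 cells of the same library. The Ereg value did not hold: it was 0.58, just under the rule, without the top cell of each library, -1.36 with a minimum of 2000 UMIs per cell, -0.50 with a mitochondrial limit of 5% and -0.048 with each library clustered alone. Areg ranged from -1.95 (2000 UMIs) to 1.81 (a finer clustering) over 10 alternatives, and Hbegf passed the rule in 9 of these, the exception being each library clustered alone (0.41, -1.18 to 2.07). Erbb3 was lower in main macrophages (1.51 and 0.661 CPM; log2 ratio -1.19, -2.30 to -0.14), on 22 and 13 UMIs that were open to free RNA in both libraries, and the call ended with TMM scaling, a scaling by trimmed means (-1.05, -2.16 to 0.0017). Egf, at 1.37 and 1.02 CPM (-0.43, -1.40 to 0.54), was neither. Erbb2 had 13, 3 and 0 UMIs in the main macrophages of the 3 libraries and Btc none.
In endothelial cells Hbegf (log2 ratio 0.08, -0.42 to 0.57) was neither, an interval that excludes a 2-fold difference. Classical monocytes of PPARg-/- tumour showed 24.4 CPM of Hbegf, but 12 of the 13 UMIs lay in 1 of 103 cells.

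Because the main clusters differed between libraries, the macrophages of each library were also clustered alone, without the members among the genes used. The cluster with the highest Ereg level of each library is described here, picked after its values were seen. Its lead in Ereg follows from that choice, and the 3 clusters were not matched between libraries. By markers it was named alveolar in WT healthy and WT tumour and interstitial in PPARg-/- tumour. It held 145 cells (14.1% of macrophages) in WT healthy against 106 (8.24%) in the WT tumour and 207 (15.9%) in the PPARg-/- tumour.
There Ereg was at 77.9 CPM (66.6 to 90.6) in WT healthy, 34.3 CPM (26.0 to 44.3) in WT tumour and, for PPARg-/- tumour, 71.4 CPM (62.7 to 81.0), which was 78.1%, 37.9% and 81.9% of macrophage Ereg UMIs. Without the top cell these levels were 57.5, 30.5 and 56.2 CPM. In the other clusters Ereg ranged from 0 to 6.35, from 0 to 11.9 and from 0 to 5.24 CPM.
Areg in the picked cluster of each library was at 15.3 CPM (10.5 to 21.5) in WT healthy. It was at 47.3 CPM (37.5 to 58.9) in the WT tumour and 60.0 CPM (52.1 to 68.8) in the PPARg-/- tumour. WT healthy was thus low for Areg and high for Ereg, and the cluster held 51.6%, 42.1% and 79.2% of macrophage Areg UMIs. Areg in the other clusters ranged from 1.17 to 5.59, from 4.71 to 66.0 and from 2.56 to 10.2 CPM, where 66.0 CPM was 3 UMIs of a 29-cell cluster in WT tumour. In WT tumour most Areg and Ereg UMIs of macrophages thus lay outside the cluster. Hbegf was in it at 9.07 CPM (6.17 to 12.9) in PPARg-/- tumour, on 31 of 63 macrophage UMIs, with 2 UMIs in WT healthy and none in WT tumour.

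The cluster also led in Cxcl2, a neutrophil-attracting chemokine of activated macrophages, at 2494 CPM in WT healthy and 1066 CPM in PPARg-/- tumour, against 49.3 to 570.0 and 8.04 to 88.7 CPM in the other clusters. In WT tumour Cxcl2 was at 457 CPM in it, and the interstitial macrophage cluster was higher, at 671 CPM, with no Ereg UMI in 191 cells. The 19 genes known to be raised by tissue digestion (heat shock proteins and early response genes) were also higher in it than in the other clusters except the interstitial one of WT tumour, at a summed 9393, 5249 and 7234 CPM in that cluster, against 4600 to 8372, 1452 to 7083 and 2224 to 5155 CPM in the others. Their part in the Areg and Ereg levels was not tested.
Of these cells 5, 7 and 32 had both an Areg and an Ereg UMI.

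**Figure D5:**
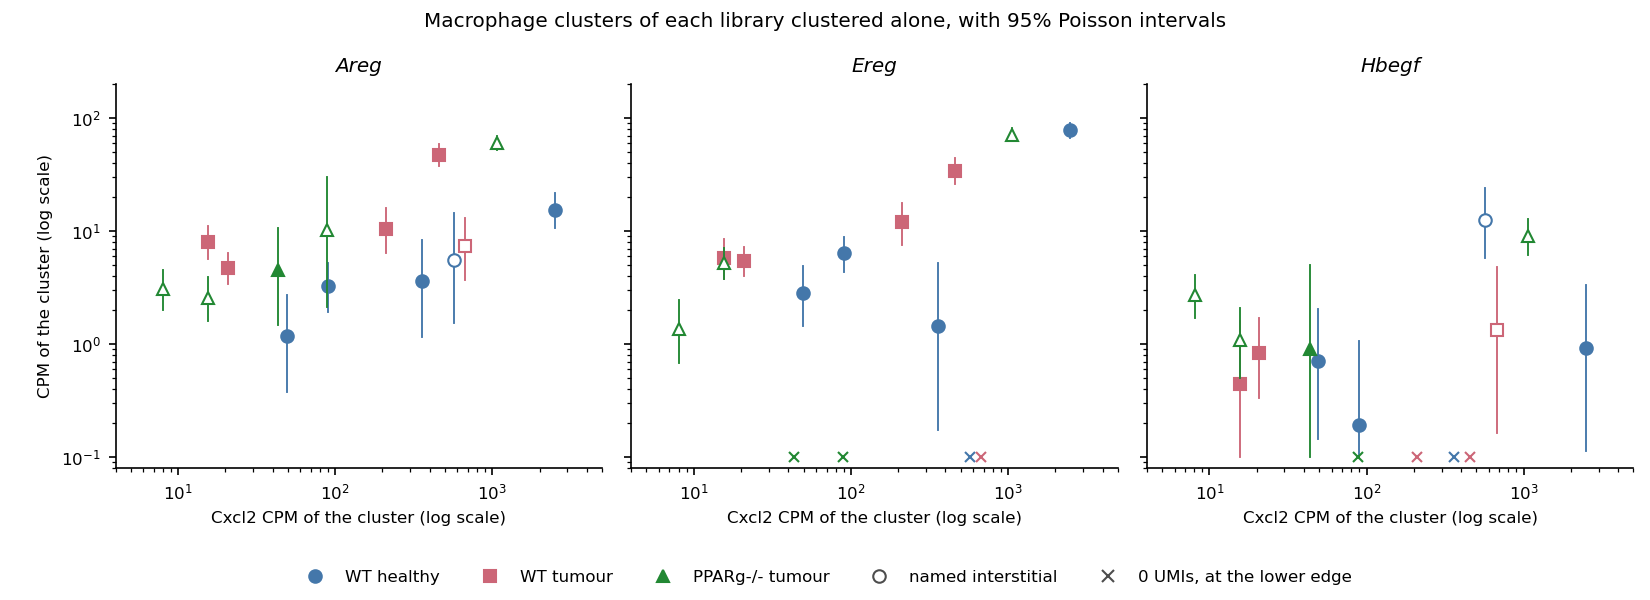
Areg, Ereg and Hbegf (y axes, CPM, log scale) against Cxcl2 (x axis, CPM, log scale) in macrophage clusters of at least 50 cells, each library clustered alone, with exact 95% Poisson intervals; open symbols are clusters named interstitial and crosses mark 0 UMIs. The cluster with the most Ereg is the one highest in Cxcl2 in WT healthy and PPARg-/- tumour, and in WT tumour the interstitial cluster with 671 CPM of Cxcl2 holds no Ereg.

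Other genes of the pathway were read from 7 lists, of which the EGFR-MAPK response list and the digestion stress list share 3 genes (Egr1, Fos and Jun). In all epithelial cells of WT tumour over WT healthy (7.47% of genes higher and 13.1% lower), 4 of 11 measured genes of ligand shedding were higher and 2 lower. The list had a median log2 ratio of 0.64, beside -0.04 for all genes. Rhbdf1, an iRhom that escorts ADAM17 to the surface, was at 4.73 and 20.4 CPM (log2 ratio 2.11) and Adam9 at 37.8 and 88.3 CPM (1.22), while Adam8 (-1.49) and the proprotein convertase Furin (-1.37) were lower. For the WT healthy pool 1 UMI was 2.37 CPM, so Rhbdf1 there and Egr1 below rest on few UMIs.
Of 13 measured response genes 4 were higher and 1 lower (median 0.31): the transcription factor Egr1 went from 14.2 to 91.8 CPM (2.69), the receptor Epha2 from 18.9 to 61.3 CPM (1.70), the cell cycle gene Ccnd1 from 173 to 482 CPM (1.48) and Phlda1 from 173 to 422 CPM (1.29). The stress list, which holds Egr1, had 6 of 19 genes higher and 4 lower, and its sum was 3085 CPM in WT healthy and 2355 CPM in WT tumour. Adaptors and Ras-MAPK kinases had 3 of 17 higher, among them Mapk3 (0.76) and Hras (0.71), feedback genes 1 of 18 (Spred1, 0.69), and the PI3 kinase arm 1 higher (Src, 1.03) and 1 lower (Plcg1, -0.73) of 11.

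In AT2 cells of PPARg-/- tumour over WT tumour 3.06% of all genes were higher and 6.01% lower. Most measured pathway genes were neither, and every call but that of Rhbdl2 was lower. In each list with a lower call the share lower was above that of all genes, on 1 to 5 genes a list. Shedding genes had 1 of 11 higher (the rhomboid protease Rhbdl2, 2.40 and 7.52 CPM, log2 ratio 1.65) and 2 lower, among them Timp3, an inhibitor of ADAM17, at 176 and 94.4 CPM (-0.90). Adaptors had 3 of 17 lower (Gab2 -1.12, Gab1 -0.71 and Map2k1 -0.64), the PI3 kinase arm 1 of 11 (Akt1, -0.64), response genes 1 of 13 (Fos, -0.98) and feedback genes none of 17 in either direction. The medians of these lists lay between -0.32 and -0.15, beside -0.11 for all genes. Stress genes had 5 of 19 lower, with sums of 2024 and 1851 CPM.

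In main macrophages of WT tumour over WT healthy (7.42% of genes higher and 15.3% lower) the response list was lower while Areg was higher: 9 of 12 measured genes were lower and none higher. Their median log2 ratio was -1.07, beside -0.16 for all genes. Egr1 went from 84.9 to 5.90 CPM (-3.85) and Phlda1 from 169 to 59.3 CPM (-1.51), and Ccnd1 (-1.47) and Jun (-1.16) were also lower. Feedback genes had 5 of 13 lower, led by the MAP kinase phosphatases Dusp5 (124 and 36.3 CPM, -1.77) and Dusp6 (90.9 and 33.2 CPM, -1.45). The stress list moved with both, with 13 of 19 genes lower and a sum of 5222 CPM in WT healthy and 2709 CPM in WT tumour, and its part was not tested. Among neuregulins Nrg4, a ligand of ERBB4, was at 28.7 and 17.0 CPM (-0.75).
In main macrophages of PPARg-/- tumour over WT tumour the neuregulins parted: Nrg1, the ligand of ERBB3, was at 0.412 and 4.32 CPM (log2 ratio 3.39) and Nrg4 at 17.0 and 2.75 CPM (-2.63). All counts here stand beside 15% of genes higher and 18.1% lower. Of 11 shedding genes 3 were higher, Adam19 (0.481 and 15.6 CPM, 5.02), Adam8 (2.72) and Adam15 (1.69), and Rhbdf1 was lower (-0.72). The kinase Src was at 1.51 and 18.8 CPM (3.64) and Spry2, a feedback inhibitor, at 0.412 and 1.73 CPM (2.07), while adaptors had 5 of 17 lower. For main macrophages of WT tumour 1 UMI was 0.0687 CPM, so Nrg1, Adam19 and Spry2 there rest on few UMIs. Response genes were split, with 4 of 12 higher, among them Egr1 (5.90 and 37.7 CPM, 2.68), Etv5 (1.94) and Ier3 (1.60), and Phlda1 lower (59.3 and 7.07 CPM, -3.07). The stress list had 7 genes higher and 2 lower, at sums of 2709 and 3256 CPM.

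By the correlation of log2(CPM + 10) over 32 units of class and library with at least 50 cells, the genes of most like pattern were Ank3, Krt23 and Tfcp2l1 for Egfr (Pearson r of 0.965 each), Bmp4, Ttll7 and Bend7 for Erbb2 (0.977 to 0.980) and Slc39a4 and Clip4 for Erbb3 (0.989 and 0.988). For Areg they were Cep170b, Clip4 and Krt8 (0.932 to 0.946), for Hbegf Emp2, Lurap1l and Lama5 (0.949 to 0.956) and for Ereg, whose cells were both epithelial and macrophage, C77080, Eif3b and Mlph (0.733 to 0.789). The units share libraries and depth, so these values are a description. Btc, Tgfa, Egf and Epgn had under 200 UMIs over the units and were not ranked.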

How the data were processed

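Lung cells of 3 libraries were measured with 10x 3' single-cell RNA sequencing. The authors deposited a raw UMI count matrix per library, with build mm10. Cell Ranger 6.0.1 and Seurat 4.0.1 are named per the submitters' processing notes, whereas the matrix headers, per the file headers, name software version 4 of Cell Ranger.

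Barcodes with at least 1000 UMIs and 500 genes and at most 10% mitochondrial UMIs were kept, doublets were marked with Scrublet in scanpy 1.11.5 (expected rate 6%; 1.80% to 2.76% marked) and removed, and cells were clustered (2000 variable genes, 30 components, 15 neighbours, Leiden resolution 1.0; leidenalg 0.10.2) without the members. Clusters were named from at least 3 markers at 4-fold in at least 10% of cells. UMIs were summed per class and library and compared with exact conditional binomial intervals (scipy 1.17.1; Python 3.11.15). Free RNA was read from barcodes with 10 to 100 UMIs. TMM scaling used edgeR 4.0.16. The scripts were checked on simulated counts. Depth was 30454790, 46148658 and 44548318 UMIs per library.

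The members, gene lists and markers were chosen with earlier results of these data known. All 10 members are named; of each pathway list at most 4 called genes with the largest absolute log2 ratio per comparison are named, and genes of like pattern are the 3 with the highest correlation; a few genes that these rules pick are not reported here. The pooled epithelial class and the macrophage clusters of single libraries were added after the data were seen.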

Additional observations from a re-analysis of the deposited data

Results flagged for a closer look

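Areg differed in opposite directions in 2 cell classes of the same pair of libraries: the log2 ratio of WT tumour over WT healthy was 1.78 in main macrophages and -2.76 in T cells. In T cells 58 of the 63 WT healthy UMIs lay in 1 cell. The difference between the 2 classes was not tested, since each group has 1 library.

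Hbegf did likewise in PPARg-/- tumour over WT tumour, at a log2 ratio of 2.35 in main macrophages and -0.98 in AT2 cells. Again the difference between the classes was not tested. The macrophage value rests on 62 and 9 UMIs and the AT2 value on 120 and 260 UMIs.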

How the results depend on the processing

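No paired analysis was possible because each group has 1 library, and for the same reason none could be left out. Of 464 recomputed log2 ratios, leaving out the setting with no minimum of UMIs, which cannot change a ratio, 405 lay within the interval of the reported value, 49 lay outside it and 10, of called values, turned sign. Of 568 recomputed CPM levels 467 lay within the interval of the reported level and 101 outside it. Most levels moved with a mitochondrial limit of 5%, where 37 lay outside the interval and 29 within. The number of pairs higher in PPARg-/- tumour over WT tumour was 2 and became 1 with each cell weighted alike, with a mitochondrial limit of 5% and with the top cell left out, and the number lower was 5 and became 8 with each library clustered alone. For WT tumour over WT healthy the number higher was 2 and became 4 with each library clustered alone, and the number lower was 1 and became 2 at Leiden resolution 2.0, with at least 2000 UMIs per barcode and with each library clustered alone, 3 with no minimum of UMIs and 0 with the top cell left out. Areg in T cells turned to 0.76 with the top cell left out. With a mitochondrial limit of 5% Erbb2 in all macrophages of WT tumour over WT healthy turned to 0.19 and Ereg in all macrophages of PPARg-/- tumour over WT tumour to -0.40. Ereg in main macrophages turned in WT tumour over WT healthy to -1.03 (2000 UMIs), -0.31 (mitochondrial limit of 5%), -0.23 (clustered alone) and -0.91 (all macrophages together), and in PPARg-/- tumour over WT tumour to -1.36, -0.50 and -0.048 under the first 3 of these. The cause was not tested. In AT2 cells of PPARg-/- tumour over WT tumour Areg (-2.22 to -0.93), Hbegf (-1.89 to -0.72) and Btc (-2.10 to -0.90) were lower by the rule under all 9 alternatives that could change them and Erbb2 under 8. Depth limits Epgn, Egf and all WT healthy epithelial values, which rest on 58 cells.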
